A study of Homo sapiens with 8 samples.

Results

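The genes described here are 9 oncofetal genes: the RNA-binding proteins IGF2BP1, IGF2BP2 and IGF2BP3, the let-7 regulators LIN28A and LIN28B, the chromatin proteins HMGA1 and HMGA2, and the imprinted pair IGF2 and H19. They were found by their gene symbol and made up 9 of the 30434 genes counted. The set was chosen from the knockdown and control values of these same libraries, with IGF2BP2 picked because it was silent in control cells, so the differences of its members between the groups are a description and carry no test.

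RNA was sequenced from SKBR3, an established human breast cancer line in which the receptor gene ERBB2 (HER2) is amplified. The controls were 4 libraries labelled as wild type, and the other 4 came from cells with a knockdown of FOXA1, a pioneer transcription factor of luminal breast cells, made stable by lentiviruses that carried 3 individual short hairpin RNAs. All cells were grown in DMEM with 10% fetal bovine serum. The labels do not say whether the controls carried a control vector, whether the knockdown line was 1 clone, or whether the replicates were separate cultures, so every p-value below measures only the spread between these libraries, which may be technical.

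FOXA1 itself had between 4071 and 4397 counts in the control libraries and between 83 and 92 in the knockdown libraries. On the CPM scale (counts per 1000000 of the TMM-scaled library total) it stood at 191.4 ± 1.65 (SD, n = 4) in control and 3.95 ± 0.34 (SD, n = 4) in knockdown, so that 2.06% was left. Library totals ran from 19087878 to 23786684 counts, and 3 counts, taken here as the floor of detection, were worth 0.123 to 0.153 CPM. Control library 3 stood apart from the other controls on the second principal component, which held 1.43% of the variance against 93% for the first. Without it the log2 differences of the members between knockdown and control were 10.30 in place of 10.68 for IGF2BP2, 7.66 in place of 7.77 for IGF2BP3, 1.68 in place of 1.57 for LIN28A, 1.44 in place of 1.41 for HMGA1 and 0.23 in place of 0.21 for H19. The contrast was wide: 77.1% of the 16430 genes tested had an edgeR adjusted p under 0.05, split into 39.4% higher in the knockdown and 37.7% lower, and the CPM of the groups did not overlap for 71.9%.

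Oncofetal genes are active in the embryo or placenta, quiet in most adult tissues and active again in many tumours. The IGF2BP proteins, named for binding IGF2 mRNA, hold and stabilise mRNAs, many of them marked by N6-methyladenosine (m6A). LIN28 proteins bind the precursors of let-7 microRNAs and block their maturation, while mature let-7 represses mRNAs that pair with its seed, among them those of LIN28, HMGA2 and the IGF2BP family. HMGA proteins bend AT-rich DNA through their AT-hooks. IGF2, a fetal growth factor, and H19, a long noncoding RNA, lie side by side and are expressed from opposite parental alleles.

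The let-7 seed is what ties most of these genes together in the literature, and its letters are shown first for that reason. In RefSeq (GRCh38.p14), 9 mature let-7 family sequences from 12 loci shared the seed GAGGUAG at bases 2 to 8, given in capitals. The 3 printed here are among those whose host transcripts are described further on, and the 5′ microRNA of H19, which has another seed, follows them. Mature microRNAs were not analysed here.
hsa-let-7a-5p: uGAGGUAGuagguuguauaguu
hsa-let-7b-5p: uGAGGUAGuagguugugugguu
hsa-let-7c-5p: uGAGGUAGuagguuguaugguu
hsa-miR-675-5p: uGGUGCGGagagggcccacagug

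The reverse complement of the let-7 seed, CTACCTC, was searched on the sense strand of 1 GENCODE 29 transcript per gene. It occurred in 9.15% of 19356 3′ UTRs. HMGA2, LIN28B and IGF2BP1 each held 4 matches, and among 3′ UTRs within 20% of their length 0.0969%, 0.22% and 0.518% held as many. IGF2BP2, IGF2BP3, LIN28A and HMGA1 each held 1 match, which 11.6%, 12.4%, 16.5% and 8.62% of 3′ UTRs of like length also had. The 3′ UTR of IGF2 and the whole H19 transcript held none. The 4 single sites and the first of the 4 in HMGA2 are printed with the match in capitals and GRCh38 coordinates, and all lie in the 3′ UTR.
IGF2BP2 site, chr3:185644219-185644242, minus strand: aacacacagaagaagCTACCTCag
IGF2BP3 site, chr7:23311794-23311817, minus strand: tgcatttttactcaaCTACCTCag
LIN28A site, chr1:26427348-26427371, plus strand: gcacagcctattgaaCTACCTCat
HMGA1 site, chr6:34245829-34245852, plus strand: tcctctgttcacaaaCTACCTCtg
HMGA2 first site, chr12:65963298-65963321, plus strand: gccaacgttcgatttCTACCTCag
A match is only a run of letters, and no binding was measured.

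IGF2BP2 and IGF2BP3, which lie on different chromosomes, were the members with the largest differences, so the 250 bases before the first RefSeq start site listed for each are printed too, with each CG in capitals.
IGF2BP2 promoter, chr3:185825043-185825292, minus strand: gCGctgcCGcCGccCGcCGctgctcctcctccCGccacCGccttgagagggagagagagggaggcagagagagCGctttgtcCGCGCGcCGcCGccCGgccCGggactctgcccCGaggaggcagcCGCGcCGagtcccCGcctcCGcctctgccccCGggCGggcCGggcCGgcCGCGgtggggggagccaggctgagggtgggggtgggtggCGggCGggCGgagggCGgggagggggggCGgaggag
IGF2BP3 promoter, chr7:23470492-23470741, minus strand: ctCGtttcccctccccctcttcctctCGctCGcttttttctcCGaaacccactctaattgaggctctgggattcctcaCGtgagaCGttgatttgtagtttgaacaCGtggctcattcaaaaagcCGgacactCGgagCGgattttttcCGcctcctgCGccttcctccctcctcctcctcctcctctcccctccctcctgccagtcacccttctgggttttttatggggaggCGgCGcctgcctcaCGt
Counted with the 50 bases after the start, the IGF2BP2 window held 38 CG pairs, which 9.91% of 35116 RefSeq promoter windows of the same length reached. A second RefSeq window of IGF2BP2, at chr3:185821093-185821392, held 3, which 81.8% reached, and which start was used in these cells was not tested. The single IGF2BP3 window held 17, which 46.0% reached. The median window held 14. The forkhead motifs TGTTTAC and TGTTTGC, searched on both strands, had no match in the windows of IGF2BP2, IGF2BP3, HMGA1, LIN28B or H19, and 7.17% of all windows held at least 1. Only these windows and exact motifs were searched, and binding of FOXA1 was not measured.

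The RNA-binding genes IGF2BP2 and IGF2BP3 went from near silence to well-expressed messages. IGF2BP2 (ENSG00000073792.16, chr3:185643739-185825056 on the minus strand of GRCh38) encodes the family member that adult tissues express most widely. It had 3, 2, 0 and 2 counts in control libraries 1 to 4 and 3124, 3434, 2677 and 3180 counts in knockdown libraries 1 to 4. In CPM it was at 0.0785 ± 0.0572 in control and at 132.6, 140.5, 136.1 and 146.9 in the knockdown libraries, with a mean of 139.0 ± 6.17. Every control library was at or under the floor of 3 counts, and no value of the groups came near the other. With 7 counts in all controls and 12415 in all knockdown libraries the ratio was 1750, with a 95% counting interval of 850 to 4360. This interval, like the others given for ratios, covers counting error only. In rank of mean CPM over all genes IGF2BP2 moved from 21087 to 1429. In bulk RNA, more or fewer cells of a type and more or less RNA per cell cannot be told apart.

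Other genes had nearly the same profile over the libraries. In root mean square difference of log2(CPM + 0.5) over the 8 libraries, the 5 genes nearest to IGF2BP2 were BEX3 at 0.145, AMOT at 0.16, MAP4K4 at 0.182, ERVH48-1 at 0.274 and ITGA6 at 0.31. BEX3, for example, had 0 or 1 count in the controls and 2573 to 3317 in the knockdown libraries. AMOT, whose product angiomotin binds YAP at cell junctions, had 0 to 5 counts in control and 2590 to 3292 in knockdown. MAP4K4 is a kinase upstream of JNK, ERVH48-1 encodes suppressyn, an envelope protein of a placental endogenous retrovirus, and ITGA6 is the laminin-binding integrin alpha 6. None of these genes shares the chromosome of IGF2BP2.

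IGF2BP3 (ENSG00000136231.14, chr7:23310209-23470467 on the minus strand) encodes the family member most often found in carcinomas. It had 16, 15, 11 and 19 counts in the control libraries and 3536, 3775, 3007 and 3235 in the knockdown libraries. That is 0.688 ± 0.124 CPM (SD, n = 4) in control and 151.7 ± 2.34 CPM (SD, n = 4) in knockdown. The groups lay far apart, and unlike IGF2BP2 the gene was above the floor in every control library. The ratio was 220, with a counting interval of 171 to 287. The genes most like it over the libraries were COL6A1 at a root mean square difference of 0.283 and MSN, the gene of moesin, at 0.293. Its exons share 1521 bases with MALSU1 on the opposite strand, and where counting ignores strand the reads of the pair cannot be told apart. MALSU1 was at 53.4 ± 0.525 CPM in control and 51.8 ± 4.34 CPM in knockdown (log2 fold change -0.04, adjusted p = 0.45), with overlapping groups and a sign that turned positive under upper-quartile and library-size scaling.

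IGF2BP1 (ENSG00000159217.10, chr17:48997412-49055650), whose chick counterpart is the zipcode-binding protein of beta-actin mRNA, stayed at trace level. It had 0, 2, 0 and 1 counts in the control libraries and 5, 9, 9 and 5 in the knockdown libraries. The groups did not overlap, and the ratio of 9.22 had a counting interval of 2.85 to 47.4. It did not pass the filter on low counts and was not tested.

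Summed over the family, the 3 genes went from 0.8 ± 0.189 CPM in control to 291 ± 6.26 CPM in knockdown. The order of IGF2BP2 and IGF2BP3 in the knockdown depended on the length used. Per kb of all annotated exons (4.74 kb for IGF2BP2 and 8.51 kb for IGF2BP3), IGF2BP2 made up 62.1% ± 1.16 of the family level and IGF2BP3 37.8% ± 1.09, and their ratio was 1.59, 1.63, 1.6 and 1.76 in knockdown libraries 1 to 4. With the length of 1 GENCODE transcript each (3.69 and 4.25 kb), an alternative added after seeing the data, the ratio was 1.02, 1.05, 1.03 and 1.13. By CPM, which does not allow for length, it was 0.883 to 0.983. The files do not say which transcripts were present, so the data do not order the pair.

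**Figure D1:**
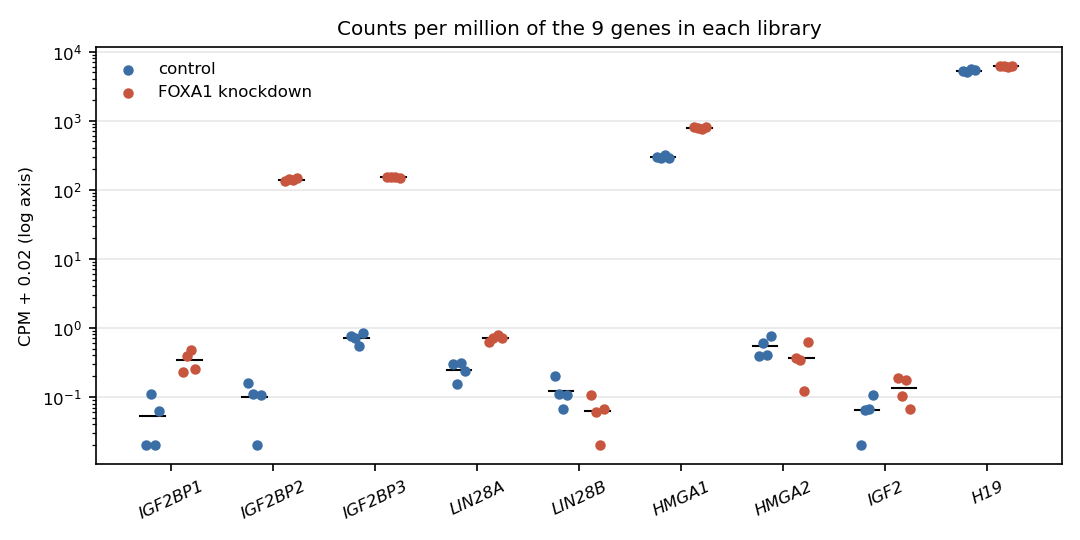
CPM + 0.02 on a log axis for each of the 9 genes, with 1 point for each library (blue control, red FOXA1 knockdown) and a bar at the group mean. IGF2BP2 and IGF2BP3 sit under 1 CPM in control and between 132.6 and 154.4 CPM in knockdown, H19 and HMGA1 are high in both groups, and the other 5 genes stay under 1 CPM in all libraries.

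LIN28A and LIN28B, the paired blockers of let-7 maturation, were at trace level in both groups. LIN28A (ENSG00000131914.11, chr1:26410778-26429722) had 6, 3, 6 and 5 counts in control and 14, 17, 15 and 15 counts in knockdown, or 0.228 ± 0.0683 CPM (SD, n = 4) and 0.686 ± 0.0694 CPM (SD, n = 4). The groups did not overlap, and the ratio was 3.01 with a counting interval of 1.79 to 5.27. LIN28B (ENSG00000187772.8, chr6:104936616-105083332) had 4, 2, 1 and 2 counts in control and 2, 1, 0 and 1 in knockdown, with overlapping groups. Its ratio was 0.439, with a counting interval of 0.0988 to 1.57. LIN28B did not pass the filter on low counts and was not tested, and this depth does not say whether it differed.

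HMGA1 was already abundant in control cells and was higher in the knockdown, while HMGA2 stayed at trace level. HMGA1 (ENSG00000137309.20, chr6:34236873-34246231 on the plus strand) had 6427, 6352, 6670 and 6718 counts in the control libraries and 18832, 19337, 14986 and 17472 in the knockdown libraries. In CPM the libraries held 293.9, 288.0, 316.3 and 289.1 in control and 799.3, 791.0, 762.1 and 807.3 in knockdown. The lowest knockdown library was far above the highest control library, and the spread within each group was small: 296.9 ± 13.2 (SD, n = 4) against 789.9 ± 19.7 (SD, n = 4). The ratio was 2.67 and the log2 difference 1.41 (SE 0.0364). HMGA1 went from rank 553 to rank 121 by mean CPM. Pseudogene copies of HMGA1 could take some of its reads, but the 4 listed had at most 8 counts in any library. The genes most like HMGA1 were TMSB10, a thymosin that binds actin monomers, at a root mean square difference of 0.214, and the ubiquitin gene UBB at 0.215.

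HMGA2 (ENSG00000149948.14, chr12:65824131-65966295), the family member with 4 let-7 matches, had 8, 13, 8 and 17 counts in control and 8, 8, 2 and 13 in knockdown. This is 0.517 ± 0.176 CPM (SD, n = 4) and 0.342 ± 0.204 CPM (SD, n = 4), with overlapping groups and a ratio of 0.666 whose counting interval ran from 0.408 to 1.07. It did not pass the filter and was not tested. Of the HMGA level per kb, HMGA2 made up 0.0266% ± 0.00982 in control.

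H19 was among the most abundant RNAs of these cells, and its neighbour IGF2 was at the floor. H19 (ENSG00000130600.19, chr11:1995176-2001470 on the minus strand) had 114038, 111807, 118154 and 123509 counts in control and 145605, 150676, 118311 and 132872 counts in knockdown. In CPM it was at 5216, 5069, 5604 and 5316 in control and at 6180, 6163, 6016 and 6139 in knockdown. All knockdown libraries were above all control libraries, but by far less than for the IGF2BP genes: the means were 5301 ± 226 (SD, n = 4) and 6125 ± 74.1 (SD, n = 4), a ratio of 1.16 and a log2 difference of 0.21 (SE 0.0317). H19 took 0.515% ± 0.0206 of all counts in control and 0.631% ± 0.00901 in knockdown, and its rank by mean CPM went from 9 to 4. The genes most like it over the libraries were the keratin gene KRT8 at a root mean square difference of 0.2 and the mitochondrial gene ND4 at 0.232, which were alike mainly in level: ND4 was at 6290 ± 164 CPM in control and 5330 ± 201 CPM in knockdown. The RefSeq coordinates of miR-675, chr11:1996800-1996822 for the 5′ arm, fall within H19.

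IGF2 (ENSG00000167244.21, chr11:2129112-2149603), the growth factor whose mRNA gave the IGF2BP family its name, had 0, 1, 1 and 2 counts in control and 4, 2, 3 and 1 in knockdown. The groups overlapped, and no fold is given because control was at the floor and knockdown hardly above it.

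In order of level per kb of all annotated exons, the control libraries ranked H19 at 1830 ± 77.9 CPM per kb, HMGA1 at 128 ± 5.69, IGF2BP3 at 0.0808 ± 0.0146, LIN28A at 0.0568 ± 0.017, HMGA2 at 0.0335 ± 0.0114, LIN28B at 0.017 ± 0.00958, IGF2BP2 at 0.0166 ± 0.0121, IGF2 at 0.00641 ± 0.00504 and IGF2BP1 at 0.00367 ± 0.00475 (SD, n = 4). From IGF2BP3 down, each neighbour in this order differed from the next by less than the sum of their SDs. In the knockdown libraries the order was H19 at 2110 ± 25.6 CPM per kb, HMGA1 at 339 ± 8.47, IGF2BP2 at 29.4 ± 1.3, IGF2BP3 at 17.8 ± 0.275, LIN28A at 0.171 ± 0.0173, IGF2BP1 at 0.0348 ± 0.0128, HMGA2 at 0.0222 ± 0.0132, IGF2 at 0.0161 ± 0.00836 and LIN28B at 0.00716 ± 0.00579. The place of IGF2BP2 above IGF2BP3 rests on the exon lengths, as given above. Here only the genes from IGF2BP1 down differed by less than the sum of their SDs from the next.

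**Figure D2:**
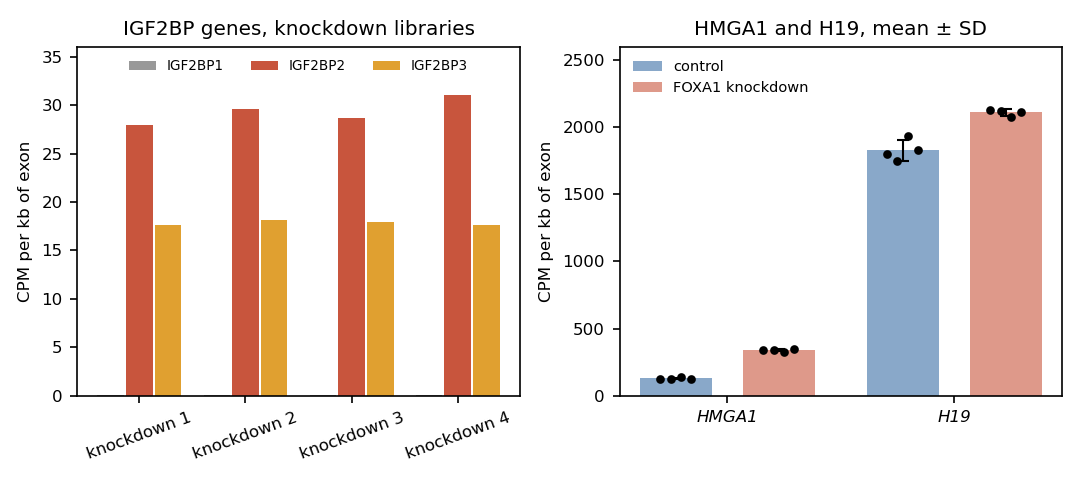
Left, CPM per kb of all annotated exons of IGF2BP1, IGF2BP2 and IGF2BP3 in each of the 4 knockdown libraries; IGF2BP1 is too low to be seen, and IGF2BP2 is above IGF2BP3 on this scale but not by CPM. Right, group means with SD bars and 1 point for each library for HMGA1 (128 in control, 339 in knockdown) and H19 (1830 and 2110 CPM per kb).

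Of the 9 members, 5 passed the filter on low counts: IGF2BP2, IGF2BP3, LIN28A, HMGA1 and H19. IGF2BP2 and LIN28A passed it only through their knockdown libraries. The CPM of the groups did not overlap for 6 of the 9 members, all higher in the knockdown, while LIN28B, HMGA2 and IGF2 overlapped. Nothing is read from this count against the 71.9% of all tested genes without overlap, because the same values chose the members. For scale, the fitted log2 fold changes of all genes tested had a median of 0.02 and ran from -2.46 at the 5th percentile to 3.37 at the 95th.

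The genes around IGF2BP2 did not share its direction as a group. Of the 5 nearest tested protein-coding genes on each side, within 1.4 Mb, 3 rose and 6 fell in edgeR's test, with a median log2 fold change of -0.39. Toward lower coordinates, SENP2, a SUMO protease, fell by 0.21 on the log2 scale, the lipase gene LIPH by 3.56, TMEM41A by 0.59, the kinase gene MAP3K13 by 0.59 and the peroxisomal enzyme gene EHHADH by 2.60. Toward higher coordinates, the splicing factor gene TRA2B rose by 0.56, TBCCD1 rose by 0.18 and the chaperone gene DNAJB11 fell by 0.45, while the crystallin gene CRYGS was at 0.796 ± 0.255 CPM in control and 0.628 ± 0.147 CPM in knockdown (adjusted p = 0.308).

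ETV5, an ETS transcription factor gene 2 places from IGF2BP2, was the neighbour with the same pattern. It had 2, 1, 0 and 1 counts in control and 192, 214, 157 and 202 counts in knockdown (adjusted p = 2.83e-19), a ratio of 189 with a counting interval of 73.5 to 695. TRA2B, which lies between them, was at 182 ± 6.41 CPM in control and 267 ± 4.12 CPM in knockdown.

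The neighbours of the other members also had both signs, but most beside IGF2BP1 rose and most beside IGF2 and H19 fell. Beside IGF2BP3, 3 of 10 rose and 4 fell, with a median of -0.02, and beside HMGA1, 5 rose and 4 fell, with a median of 0.07. IGF2 and H19 share the same 10 neighbours, of which 2 rose and 7 fell, with a median of -0.72. LIN28A and LIN28B each had 4 that rose and 5 that fell, HMGA2 had 6 and 3, and IGF2BP1 had 9 and 1. Some neighbours overlap each other on the same strand, and the counting could have split reads between them. Beside HMGA1, RPS10-NUDT3 overlaps NUDT3 and RPS10, which all rose. Beside IGF2 and H19, CTSD overlaps an unnamed gene, and both fell. These genes were named after their values were seen.

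**Figure D3:**
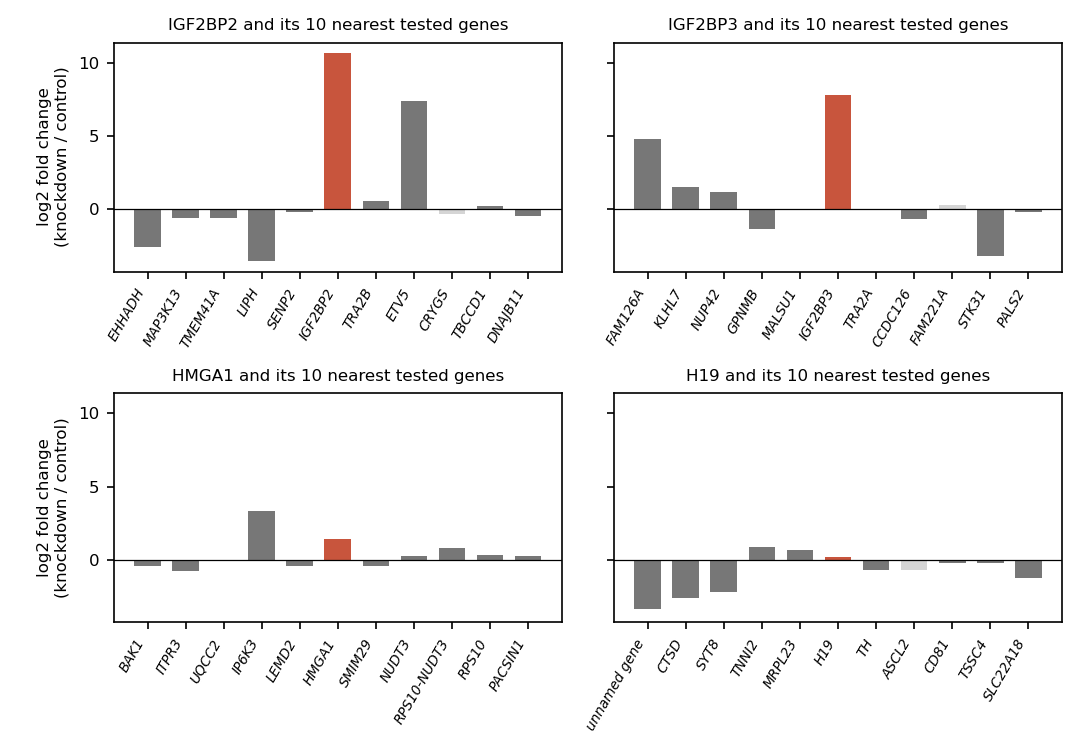
Fitted log2 fold change (knockdown over control) of IGF2BP2, IGF2BP3, HMGA1 and H19 (red) and their 10 nearest tested protein-coding genes in chromosome order (dark grey past an adjusted p of 0.05, light grey not past it). The 4 genes stand beside neighbours of both signs, and ETV5 is the neighbour of IGF2BP2 with a similar bar; fitted values of IGF2BP2 and ETV5 depend on the prior count.

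The let-7 pathway outside the members was described from 3 gene lists. The counts of these and of the other lists stand beside the 39.4% of all tested genes that rose and the 37.7% that fell. The lists were chosen with earlier results of these data known, and some genes stand in several lists. Their counts and medians are therefore descriptions only. Of 22 genes for processing, silencing and decay, all tested, 16 rose, 3 fell and 3 did not pass, with a median log2 fold change of 0.30. TUT4, a uridylyl transferase that LIN28 recruits, rose from 25.9 ± 1.35 to 43.7 ± 0.939 CPM (adjusted p = 4.42e-13). TUT7, another uridylyl transferase gene of the list, fell from 44.1 ± 4.03 to 37.2 ± 2.89 CPM (adjusted p = 0.0026), with overlapping groups. The RNA-binding gene MSI2 rose from 63.7 ± 2.24 to 98.6 ± 2.75 CPM (adjusted p = 2.75e-13). The silencing factor genes TNRC6C and AGO4 fell by 1.14 and 0.41 on the log2 scale. DICER1, the enzyme that cuts let-7 precursors, rose by 0.30, and TRIM71, a stem cell ubiquitin ligase that is itself a let-7 target, rose from 0.305 ± 0.0977 to 2.6 ± 0.544 CPM (adjusted p = 5.14e-11). TUT7, DICER1 and TRIM71 fall outside the rule for named genes and were chosen after their values were seen.

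Long transcripts that host let-7 hairpins were lower or not past the test. Of 5 tested, none rose, 3 fell and 2 did not pass. MIR99AHG, the host of let-7c, fell from 6.92 ± 0.585 to 0.721 ± 0.263 CPM (adjusted p = 4.64e-15), and MIRLET7A1HG, the host of a let-7a locus, fell from 11.5 ± 0.879 to 9.29 ± 0.922 CPM (adjusted p = 0.00207). MIRLET7BHG, the host of let-7b, fell from 3.62 ± 0.0927 to 0.645 ± 0.155 CPM (adjusted p = 5.11e-12). The remaining 2 were HUWE1, at 438 ± 9.83 and 450 ± 22.7 CPM (adjusted p = 0.318), and MIRLET7IHG, at 1.05 ± 0.0699 and 0.847 ± 0.108 CPM (adjusted p = 0.207). MIRLET7BHG, HUWE1 and MIRLET7IHG were named after their values were seen.

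Targets of let-7 other than the members moved in both directions. Of 28 tested, 18 rose, 7 fell and 3 did not pass, with a median of 0.37. The largest rises among well-counted genes were HIC2, a zinc finger repressor gene, from 8.92 ± 1.24 to 65.3 ± 3.86 CPM (adjusted p = 1.69e-19), and ARID3A, from 11 ± 1.1 to 51.2 ± 1.79 CPM (adjusted p = 4.87e-21). The largest falls were the cell cycle kinase gene CDK6, from 67.2 ± 1.88 to 2.47 ± 0.385 CPM (adjusted p = 3.41e-26), and the receptor gene IGF1R, from 24.3 ± 0.922 to 4.64 ± 0.852 CPM (adjusted p = 3.29e-18). The same list thus held genes that rose several-fold and a kinase gene that fell to a few CPM.

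Genes known to act with IGF2BP proteins moved by less than 1 on the log2 scale. Of 23 entries for m6A enzymes, m6A readers and RNA-binding partners (MATR3 is listed under 2 identifiers), 12 rose, 8 fell and 3 did not pass, with a median of 0.09. The largest shifts were in MATR3, which rose from 259 ± 29.2 to 375 ± 19.3 CPM under one identifier (adjusted p = 0.000503) and from 76.4 ± 22.5 to 147 ± 6.63 CPM under the other (adjusted p = 0.00411), in HNRNPU, which rose by 0.61 on the log2 scale, and in PABPC1 and YTHDF3, which fell by 0.70 and 0.56. MATR3 reads could be split between its identifiers by the counting.

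The mRNAs reported as bound or stabilised by IGF2BP proteins changed more widely. Of 22 tested, 12 rose, 7 fell and 3 did not pass, with a median of 0.30. FSCN1, which encodes the actin bundler fascin, had 38, 36, 23 and 40 counts in control and 14389, 14959, 11354 and 13421 counts in knockdown. This is 1.55 ± 0.307 and 605 ± 18.9 CPM, a log2 fold change of 8.60 (adjusted p = 4.16e-32). ABCB1, the drug efflux pump gene, had 0 to 3 counts in control and 169 to 199 in knockdown, a ratio of 104 with a counting interval of 50.1 to 259 (adjusted p = 9.64e-19). TK1, thymidine kinase, and FN1, fibronectin, fell by 1.68 and 1.57 on the log2 scale.

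In the IGF signalling axis beyond IGF2, all 13 genes tested passed, 7 higher and 6 lower, with a median of 1.46, against 77.1% of all genes tested. The table held 5 further genes of the axis with too few counts to be tested, of which IGF1, IGFBP6, PAPPA and IGFALS had at most 8 counts in any library and overlapping groups. The remaining one, IGFBP4, had 9, 6, 5 and 4 counts in control and 3, 2, 0 and 2 in knockdown, without overlap. Among the tested genes, the pappalysin gene PAPPA2 rose from 0 or 1 count in control to between 24 and 34 in knockdown (adjusted p = 9.79e-11). These 5 and PAPPA2 were named after their values were seen. STC2 and STC1 encode stanniocalcins, which block the pappalysin proteases that release IGF from its binding proteins. STC2 had 0, 0, 0 and 1 counts in control and 738, 800, 596 and 693 in knockdown (ratio 2790, counting interval 501 to 110000, adjusted p = 4.32e-25). The single control count is in library 4, and without that library the fitted log2 fold change of STC2, which depends on the prior count, went from 10.86 to 12.44. STC1 rose from 0.774 ± 0.192 to 60 ± 1.88 CPM (adjusted p = 1.08e-26). The IGF binding protein genes IGFBP5 and IGFBP7 fell by 6.5 and 6.1 on the log2 scale, IGFBP5 from 234 ± 0.838 to 2.59 ± 0.296 CPM.

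Receptors and adaptors of the axis split as well. IGF1R fell as given above, and INSR, the insulin receptor gene, rose by 1.46 on the log2 scale. The adaptor gene IRS1 fell by 1.25 and the adaptor gene IRS2 rose by 1.49, while the scavenger receptor gene IGF2R fell by 0.39. IGFBP2 rose from 1.25 ± 0.17 to 90.8 ± 0.861 CPM (adjusted p = 1.79e-28), and GRB10, an imprinted adaptor gene, from 32.5 ± 0.676 to 256 ± 7.93 CPM (adjusted p = 1.67e-27). INSR, IRS1, IRS2, IGF2R, IGFBP2 and GRB10 were named after their values were seen.

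Of 9 further high mobility group genes tested, 8 rose and 1 fell, with a median of 0.48, against 39.4% and 37.7% of all genes tested. HMGN5 and TOX had too few counts to be tested. HMGN5 had 8, 12, 14 and 23 counts in control and 3, 1, 1 and 1 in knockdown, without overlap. It was 9.61-fold lower in knockdown, with a counting interval of 4.15 to 27.3. TOX had 0 counts in control and 1, 0, 1 and 4 in knockdown, with overlapping groups. Both were named after their values were seen. HMGN4 rose from 26.5 ± 0.791 to 60.8 ± 0.983 CPM (adjusted p = 4.96e-18) and HMGN2, a nucleosome-binding protein gene, from 275 ± 9.28 to 515 ± 12.0 CPM (adjusted p = 2.79e-18). HMG20B, a subunit gene of a histone demethylase and deacetylase complex, fell by 0.56 on the log2 scale. HMGA1, with a log2 difference of 1.41, was above all 9 tested genes of this list. Nothing is read from its place, because the same values chose HMGA1 as a member.

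Among 10 tested genes reported to respond to HMGA proteins, 6 rose and 4 fell, with a median of 0.26. SNAI1, an epithelial-mesenchymal transition factor gene, rose by 1.14 and the cyclin gene CCNE1 by 0.62, while STAT3 fell by 2.32 on the log2 scale. KITLG, the gene of the KIT ligand, had 8926, 8828, 7031 and 9299 counts in control and 8, 7, 8 and 7 in knockdown, from 386 ± 34.9 to 0.339 ± 0.0504 CPM (adjusted p = 1.08e-17).

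The list of imprinted genes other than IGF2 and H19, with the regulators CTCF and ZFP57, held 26 entries. ZFP57 was among those with too few counts to be tested. Of the 16 tested, 11 rose, 3 fell and 2 did not pass, with a median of 0.52. PEG3 had 21, 9, 26 and 29 counts in control and 3353, 3922, 2994 and 3165 counts in knockdown (adjusted p = 1.73e-17), and NDN rose from 0.566 ± 0.138 to 9.04 ± 0.445 CPM (adjusted p = 3.42e-18). SLC22A18 and PHLDA2, on chromosome 11 like H19, fell by 1.23 and 1.04 on the log2 scale. The start of SLC22A18 is 898 kb from that of H19. Also on chromosome 11, KCNQ1OT1 was at 25.8 ± 3.04 CPM in control and 26.4 ± 2.99 CPM in knockdown (adjusted p = 0.771). CDKN1C, there too but not tested, had 4, 2, 2 and 1 counts in control and 13, 9, 8 and 8 in knockdown. KCNQ1OT1 and CDKN1C were named after their values were seen.

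Other oncofetal and placental genes gave 10 that rose, 3 that fell and 1 that did not pass of 14 tested, with a median of 2.13. Placental alkaline phosphatase, ALPP, rose from 78.8 ± 3.51 to 2000 ± 34.5 CPM (adjusted p = 2.17e-31), and its near-identical copy ALPG from 1.26 ± 0.0851 to 38.0 ± 2.8 CPM (adjusted p = 2.7e-24), where the counting could have passed reads from one to the other. TPBG, the 5T4 oncofetal antigen gene, fell by 0.77 on the log2 scale. CEACAM6, a carcinoembryonic antigen family gene named after its values were seen, had 26 to 45 counts in the control libraries and none in any knockdown library, and was at least 43.9-fold lower there, taking 3 counts over the knockdown group as the floor.

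**Figure D4:**
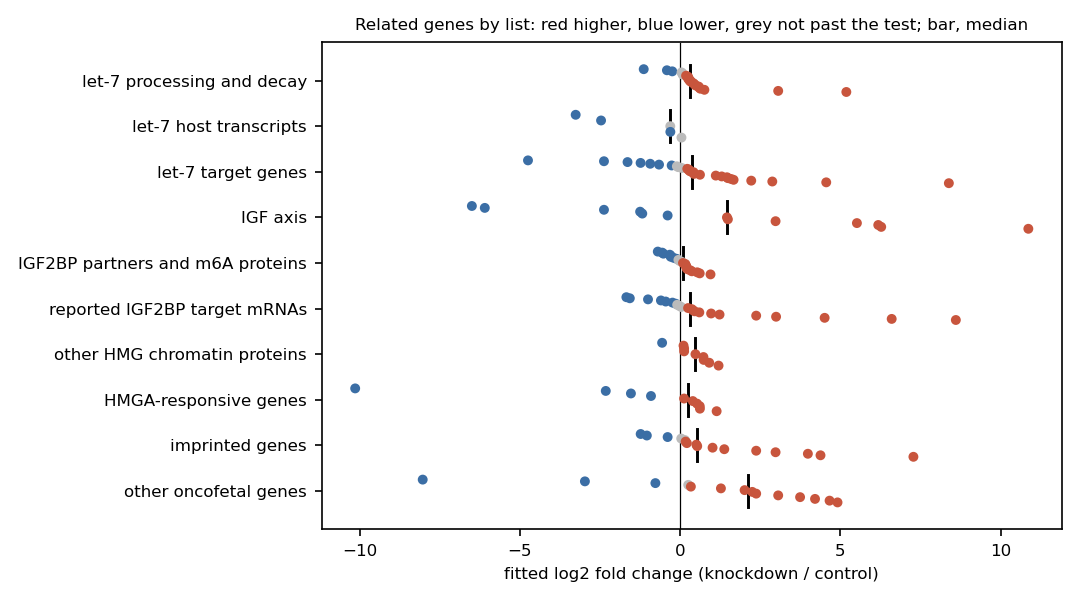
Fitted log2 fold change (knockdown over control) of each tested gene in 10 lists of related genes, red past an adjusted p of 0.05 and higher, blue past it and lower, grey not past it, with a bar at the list median. Most lists hold genes of both signs; the median of other oncofetal genes lies at 2.13 and that of let-7 host transcripts at -0.31.

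Markers of the labelled cell type were present, and those of other types were low. The 10 epithelial markers summed to between 19220 and 21390 CPM in control and between 12270 and 13190 CPM in knockdown, with 5 higher, 4 lower and 1 not past the test, ERBB2 itself going from 7299 ± 364.9 to 1338 ± 52.89 CPM. Fibroblast markers summed to 6.04 to 7.68 CPM in control and 11.2 to 12.8 CPM in knockdown, where COL3A1 went from 0 or 1 count to between 90 and 104 counts and PDGFRB rose from 0.41 ± 0.11 to 2.83 ± 0.475 CPM (adjusted p = 2.99e-11), while DCN stayed at 0 or 1 count. COL1A1, the best counted of them, was at 5.38 ± 0.754 CPM in control and 4.32 ± 0.22 CPM in knockdown (adjusted p = 0.0169), a call lost without control library 3 (adjusted p = 0.0817). Blood cell markers summed to at most 2.24 CPM, and endothelial markers to between 19.8 and 22.5 CPM in both groups. Within the endothelial sum VWF fell from 5.21 ± 0.583 to 0.844 ± 0.218 CPM (adjusted p = 3.31e-13) and CDH5 rose from 16.1 ± 0.294 to 20 ± 1.36 CPM (adjusted p = 6.28e-05), with KDR at 0 in control. COL3A1, PDGFRB, DCN and KDR were named after their values were seen. The part of such cells in the results was not tested.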

How the data were processed

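The authors deposited raw counts per gene as whole numbers for 8 libraries, paired-end reads of total RNA after an mRNA protocol per the labels. Salmon 1.9 and the build hg38 are named in the submitters' processing notes with no role stated; if Salmon made the table, the counts are rounded estimates and can be split between copies. The annotation and the use of strand are not given in the sources used here. Groups and columns were matched by sample title.

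edgeR 4.0.16 in R 4.3.3 was run on all 8 libraries with TMM scaling, filterByExpr (10 counts, 15 in total), which left 16430 genes, the robust quasi-likelihood test and Benjamini-Hochberg adjustment over all genes at 0.05. Fold changes were fitted with a prior count of 0.125; their SEs are from the replicate spread of log2 CPM after adding 0.5 to the counts. Positions, exon lengths and 3′ UTRs come from GENCODE 29, microRNAs and promoters from RefSeq GRCh38.p14 tables. Of the members, 5 matched a promoter entry. The fit was tested on simulated data.

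The members and the lists were chosen with earlier results of these data known. Named genes are the members, FOXA1, per list the 2 largest rises and falls past the test with a mean of at least 50 counts, the neighbours of IGF2BP2, genes that overlap a member, and the nearest genes by likeness; others are marked where named. The results were recomputed with upper-quartile, RLE or library-size scaling, with no filter or a mean of at least 50 counts, with DESeq2 1.42.0 or limma voom (limma 3.58.1), with a replicate block and without each library. Replicate libraries correlated at Spearman rho of at least 0.995 and differed by more than counting noise. Each was counted as 1 sample, although this spread may be technical. An unadjusted or adjusted p for the members is not given.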

Additional observations from a re-analysis of the deposited data

Results flagged for a closer look

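The values of the members and named genes made 134 groups of 4 libraries. In 8 of them the gap of 1 library to the nearest of the others, as a share of the group's range, was above Dixon's critical value at 95%, and chance alone gives about 6.7 such groups. None of the 8 concerned the 9 members.

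Control library 3 was the one apart for FSCN1, at 1.09 CPM against 1.63 to 1.74 in the other controls, for HMG20B, at 177.7 CPM against 163.5 to 165.8, and for KITLG, at 333.5 CPM against 400.2 to 408.2. Control library 4 was apart for ALPP, at 84.1 CPM against 77.0 to 77.2, and for STC2, at 0.043 CPM from 1 count against 0 counts in the others. Knockdown library 4 was apart for TPBG, at 36.6 CPM against 34.6 to 34.7, and for KRT18, at 3652 CPM against 3366 to 3411, and knockdown library 2 for HMGN2, at 497.4 CPM against 519.4 to 523.7. Each of these gaps was smaller than the difference between the group means of the same gene.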

How the results depend on the processing

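Under 16 alternatives the number of genes called of all tested ran from 10279 to 15028, and the log2 differences of the members ran from 10.30 to 11.04 for IGF2BP2, 7.66 to 7.86 for IGF2BP3, 1.39 to 1.68 for LIN28A, 1.39 to 1.5 for HMGA1 and 0.19 to 0.29 for H19. HMGA1 and H19 moved by more than their replicate SD to 1.47 and 0.27 under upper-quartile scaling and to 1.5 and 0.29 with library size only, settings that also shift the median of all genes, by up to 0.08. MALSU1 turned positive there, at 0.017 and 0.041. With a mean of at least 50 counts required, 7 of 8 tested other oncofetal genes were called in place of 13 of 14, because fewer genes were tested. The other list counts stayed within 1.5 times under all 16. COL1A1 lost its call under upper-quartile scaling (adjusted p = 0.0514), library size only (0.0749), DESeq2 (0.0524) and without control library 3 (0.0817), over a range of 0.0086 to 0.0817 in all 16. The mean ratio of IGF2BP2 to IGF2BP3 in knockdown fell from 1.65 to 1.06 with 1 transcript's length and to 0.917 with no division by length, both chosen after seeing the data. Same-numbered libraries of the groups did not deviate together (correlations of -0.03 to 0.06, and 1 of 4 controls was closest to its own number). These correlations cannot show whether same-numbered libraries shared a culture or batch, which the labels do not state. A replicate block gave 12939 calls among 17489 genes. IGF2BP1, LIN28B, HMGA2 and IGF2 are limited by depth.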
